A study of Rattus norvegicus with 12 samples.

Results

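The libraries described here are the 9 whole-lung RNA libraries of rats kept in a hypobaric chamber, pooled as 1 side and set against the 3 libraries of normoxic rats, which makes use of all 12 libraries of the series. The chamber side was formed from the group labels alone, with no measured value: 3 libraries of rats kept in the chamber without reoxygenation (H), 3 of rats that also breathed oxygen-enriched gas continuously for part of each day (C3), and 3 of rats that breathed it intermittently (I3). All were adult rats of the strain labelled SD. Normoxic rats (N) stayed at a laboratory altitude of 400 m and breathed 21% O2. Chamber rats lived at 405 mmHg, equivalent to about 5000 m. Reoxygenated rats received 42% O2 for 3 h per day. Exposure lasted 2 weeks. The chamber groups share lowered pressure, low oxygen and life in a chamber, and these cannot be told apart in this comparison, since the labels do not say whether N rats were also housed in one. Nothing in the labels says that the libraries of a group were made from different rats, so a p-value reflects only how far these libraries spread, and part of that spread may be technical.

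In the lung, low alveolar oxygen constricts the small pulmonary arteries, which steers blood toward better ventilated regions. When the whole lung is hypoxic for long, the constriction becomes general, the vessel walls thicken with smooth muscle and matrix, and pulmonary arterial pressure rises. Inside cells, prolyl hydroxylases use oxygen to mark hypoxia-inducible factors for destruction, so that these transcription factors accumulate when oxygen is scarce and raise transcripts of glycolysis, vessel growth and red cell production. Pooling the chamber groups asks which transcripts differ from normoxia in the average of groups with and without oxygen returned for part of the day. A single group can carry such an average, so a call does not show a difference in each group.

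Abundance was deposited for Ensembl transcripts without gene names, and 0 of 17254 identifiers could be paired with a gene in the reference used here. Transcripts are therefore described by their values, and neither pathways nor markers of lung cell types could be read, so that the tissue label was not checked. The unit used is FPKM, a fragment number corrected for transcript length and for the size of the library, and comparisons were made on log2(FPKM + 1). In whole tissue, fewer cells of a type and less RNA per cell cannot be told apart. Sums of the values per library ran from 323894 to 361337, and N replicate 2 held the highest. Transcripts at 1 FPKM or more numbered 13949 to 14452 per library. Spearman correlations across transcripts had a median of 0.908 within N (3 pairs, 0.9 to 0.913). Between N and chamber libraries it was 0.901 (27 pairs, 0.88 to 0.914). The median was 0.915 within the chamber groups (9 pairs, 0.904 to 0.925) and 0.914 between chamber groups (27 pairs, 0.903 to 0.923). These are descriptions of libraries that share one transcript list. The first principal component held 15.1% of the variance. On it, N replicate 2 (60.3), N replicate 3 (35.6) and N replicate 1 (10.1) all lay on one side of the 9 chamber libraries (-21.7 to -3.38). N replicate 1 thus lay closer to the chamber libraries than to N replicate 2. The second component held 10.99% of the variance, and there H replicate 3 (36.4) and I3 replicate 3 (39.4) stood apart from the other 10 libraries (-25.7 to 10.2). On the third, with 9.5% of the variance, N replicate 1 (-44.1) and H replicate 1 (-33.6) stood apart from the other 10 (-1.83 to 23.1).

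The chamber libraries differed from normoxia in 185 of the 15435 transcripts tested, or 1.20%, at an adjusted p below 0.05 in limma (a linear model across all transcripts with moderated variances). Of these, 88 were higher in the chamber (0.570% of those tested) and 97 were lower (0.628%). The higher transcripts had a median difference of 0.94 on the log2(FPKM + 1) scale, with a range of 0.32 to 3.15. The lower transcripts had a median of -0.92 and a range of -4.57 to -0.39. The difference reached 1 or more on the log2 scale in 33 of the higher and 38 of the lower transcripts, and it reached 2 or more in 5 and 7. The median difference over all transcripts tested was -0.03. After median ratio scaling that median was -0.0019 and the calls were 98 higher and 87 lower, so which direction was the larger depended on the scaling. At an unadjusted p below 0.05, 2410 transcripts differed, or 15.6%. At the threshold, the last transcript called had an adjusted p of 0.0489 in limma and the next one 0.0504.

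**Figure D1:**
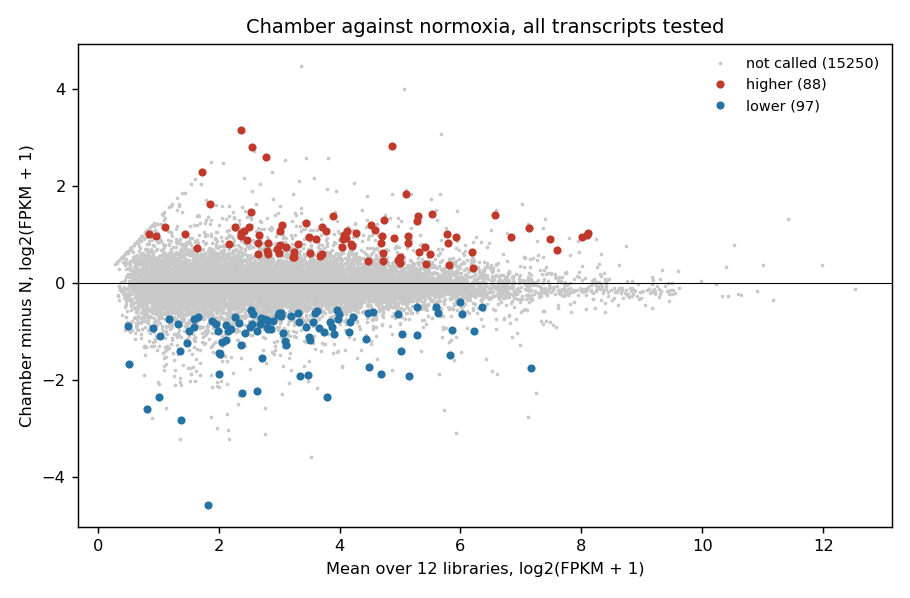
Difference between the mean of the chamber groups and normoxia (vertical, log2(FPKM + 1)) against the mean level over 12 libraries (horizontal, log2(FPKM + 1)) for all 15435 transcripts tested. The 88 transcripts called higher and the 97 called lower are coloured, and they spread over most of the range of levels without reaching the most abundant transcripts.

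The largest rises and falls among called transcripts whose chamber and N libraries did not overlap are given with their values in every library. ENSRNOT00000090914 stood at 4.85, 4.52 and 8.26 FPKM in the N libraries. The H libraries held 40.6, 19.4 and 114 FPKM, the C3 libraries 98.7, 85.9 and 64.0, and the I3 libraries 21.2, 44.3 and 22.5. The lowest chamber library thus lay above the highest N library, while the H libraries spread widely and H replicate 3 was the highest of all. Its difference was 2.84 ± 0.44 on the log2 scale (SE), with an adjusted p of 0.0171 in limma. The call was lost without N replicate 2 (adjusted p = 0.0981 in limma) and without N replicate 3 (adjusted p = 0.0509 in limma), the range over its alternatives being 0.00983 to 0.272.

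ENSRNOT00000052288 was close to absent in normoxia, at 0.21, 0.31 and 0.60 FPKM. The H libraries held 10.1, 8.68 and 13.1 FPKM, the C3 libraries 10.8, 10.1 and 6.27, and the I3 libraries 9.20, 6.59 and 4.89. Every chamber library lay far above every N library, with a gap of 1.88 on the log2 scale between the nearest libraries of the groups, the widest among the transcripts called higher. Its difference was 2.81 ± 0.21 on the log2 scale (SE), with an adjusted p of 0.000584 in limma, the smallest among the transcripts called higher. With a pseudocount of 0.1 the difference was 4.27. It passed under all 24 alternatives run for it, with adjusted p-values from 0.000244 to 0.0147 in limma.

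ENSRNOT00000026473 was lower in the chamber. Normoxic libraries held 32.8, 6.09 and 5.05 FPKM, H libraries 0.34, 0.22 and 0.33, C3 libraries 0.74, 0.55 and 0.80, and I3 libraries 1.23, 0.56 and 0.93. N replicate 1 was far above the other N libraries, and no chamber library came near the lowest N library. The difference was -2.82 ± 0.43 on the log2 scale (SE), which limma called at an adjusted p of 0.0159. The difference was -2.03 without N replicate 1, -4.40 without both N replicates 2 and 3, and -3.93 with a pseudocount of 0.1. Over its alternatives the adjusted p ranged from 0.00011 to 0.0652, and the call was lost with H replicate 3 and I3 replicate 3 both left out.

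ENSRNOT00000045492 stood at 1.37, 5.46 and 19.7 FPKM in the N libraries and was listed at 0 in all 3 H libraries. It stood at 0.50 and 0.33 FPKM in C3 replicates 1 and 2 and at 0.18 and 0.24 in I3 replicates 1 and 2, and replicate 3 of both groups was listed at 0. An exact 0 in a table of estimated abundances can be a failed estimate. The groups did not overlap, but the N libraries differed widely among themselves. The difference was -2.60 ± 0.49 on the log2 scale (SE) with an adjusted p of 0.037 in limma. Leaving out N replicate 1 made it -3.36, leaving out N replicate 3 made it -1.80, and leaving out both N replicates 2 and 3 made it -1.07. With a pseudocount of 0.1 it was -4.89. This call was the least stable of the 4, being lost in 14 of 23 alternatives, among them the omission of any single library other than N replicate 1 (adjusted p up to 0.154 in limma without N replicate 2). For each of these 4 transcripts the exact two-sided permutation test of 9 against 3 libraries gave p = 0.00909, the smallest that its 220 arrangements allow, which any transcript without overlap reaches.

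**Figure D2:**
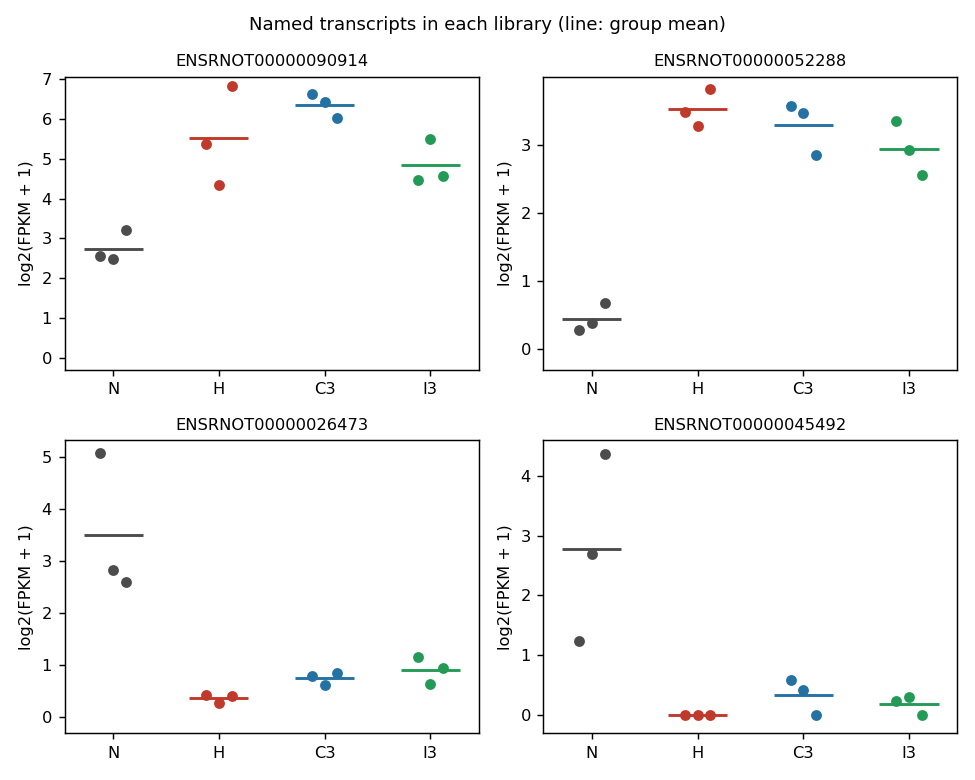
Level of the 4 named transcripts in each library (points, log2(FPKM + 1), replicates 1 to 3 from left to right), by exposure group, with the group mean as a line. In the upper panels every chamber library lies above every N library, and in the lower panels every chamber library lies below every N library, with N libraries far apart.

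The transcript with the smallest p of all was the next largest fall without overlap, after the 2 named ones, and it was picked out after its values were seen. Normoxic libraries held 43.4, 49.3 and 44.3 FPKM. The H libraries held 8.15, 9.98 and 8.42 FPKM, the C3 libraries 7.02, 8 and 9.18, and the I3 libraries 6.97, 8.98 and 7.42. The N libraries lay close together, the 9 chamber libraries lay close together, and 2.02 on the log2 scale separated the nearest libraries of the sides. Its difference was -2.34 ± 0.11 on the log2 scale (SE), and limma gave an adjusted p of 1.03e-05, ranging from 5.21e-07 to 0.0016 over its alternatives. The level was nearly the same in the chamber groups, at 8.85 ± 0.98 FPKM in H, 8.07 ± 1.08 in C3 and 7.79 ± 1.05 in I3 (SD, n = 3). The F test among these groups gave an adjusted p of 0.883 in limma, which does not show that they were equal.

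The largest fitted differences among called transcripts belonged to 2 transcripts whose libraries were not fully separated between the sides. The largest fall of all, -4.57 on the log2 scale with an adjusted p of 0.0487 in limma, belonged to a transcript at 2.80 FPKM in N replicate 1, 155 in N replicate 2 and 90.7 in N replicate 3, against 0 to 4.14 in the chamber. H replicate 2, at 4.14 FPKM, lay above N replicate 1, so the sides overlapped. Among called transcripts the largest rise was 3.15 on the log2 scale, with an adjusted p of 0.0375 in limma. Transcripts that were not called reached a rise of 4.48. The called one was listed at 0 in all N libraries and in H replicate 1. It stood at 4.88 and 6.81 FPKM in the other H libraries, 6.48 to 26.7 in C3 and 6.60 to 17.5 in I3. Another transcript was listed at 0 in all N libraries and in I3 replicate 2, and at 4.13 to 7.02 FPKM in the other 8 chamber libraries. In the opposite direction, 3 called transcripts, ENSRNOT00000045492 among them, were listed at 0 in 5 or more chamber libraries. All of them stood above 1 FPKM in every N library. No called transcript was listed at 0 in all 9 chamber libraries. The largest fall became -3.55 on the log2 scale without N replicate 2, which ended its call (adjusted p = 0.232 in limma), -3.93 without N replicate 3, where the call was lost too (adjusted p = 0.161 in limma), and -6.22 without N replicate 1 (adjusted p = 3e-04 in limma). Its call was lost under every omission of a single library except that of N replicate 1, and without N replicates 2 and 3 together the difference was -1.25. The largest called rise kept a difference of 2.96 to 3.46 under each omission of a single library. Its call was lost in most of them, with the highest adjusted p, 0.161 in limma, without N replicate 2, where the difference was still 3.15.

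Called transcripts were spread over levels, and by the mean over 12 libraries the higher ones ranked above the lower ones. Chamber libraries are 9 of those 12, so a rise lifts this mean and a fall lowers it. It therefore does not show which were more abundant in normoxia. The mean over 12 libraries had a median of 16.2 FPKM among the higher transcripts, 7.41 among the lower ones and 7.40 among all transcripts tested. It was at least 100 FPKM in 8 higher and 1 lower transcripts. When all transcripts tested were divided into 4 classes of about equal size by mean level, 0.492% were called in the lowest class (19 transcripts), 1.37% in the next (53), 1.27% in the one above (49) and 1.66% in the highest (64). The lowest class held 5 higher and 14 lower transcripts and the highest 40 higher and 24 lower. This split rests on the same mean, which the direction of a call moves. The residual SD on the log2 scale was smaller in each class than in the one below, with medians from 0.34 to 0.27, 0.22 and 0.20. The most abundant higher transcript stood at 119 to 209 FPKM in N and at 245 to 418 in the chamber, a difference of 1.04 ± 0.17 on the log2 scale (SE) with an adjusted p of 0.0217 in limma. The call did not survive the omission of N replicate 2 (adjusted p = 0.0917 in limma) or of N replicate 3 (0.0746). The most abundant lower transcript stood at 334 to 398 FPKM in N and at 77.8 to 101 in 8 chamber libraries, but I3 replicate 1 held 344 FPKM. Its adjusted p was 0.0487 in limma, and 19 of 24 alternatives ended that call, the highest adjusted p among them being 0.587.

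The summed values of the called transcripts describe each library's share, with no test since the same libraries chose them. The 88 higher transcripts made up 0.583%, 0.502% and 0.542% of all FPKM in N replicates 1 to 3. In the chamber libraries they made up 0.991% to 1.21%. The 97 lower transcripts made up 0.756%, 0.834% and 0.781% of the sum in N and 0.324% to 0.427% in the chamber. N replicate 2 lay at the far end from the chamber libraries in both sums.

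**Figure D3:**
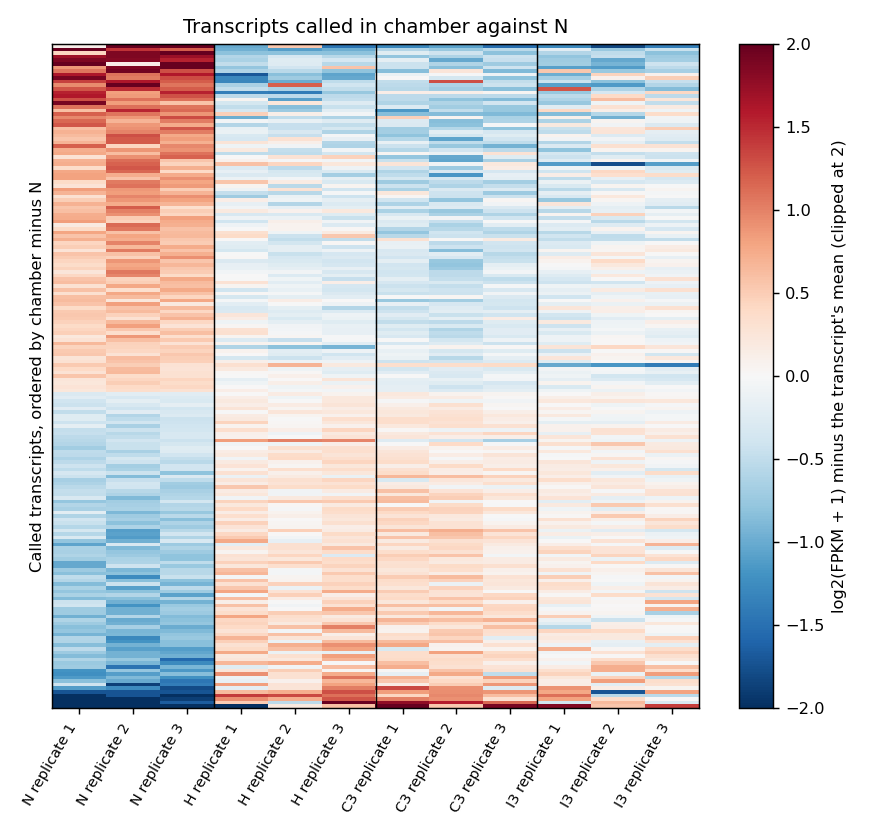
Values of the 185 called transcripts (rows, ordered by chamber minus N) in the 12 libraries (columns), as log2(FPKM + 1) minus the transcript's mean over 12 libraries, clipped at 2. The 3 N columns stand apart from the 9 chamber columns, as the choice of transcripts requires, and single rows depart from this in I3 or H.

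Libraries of the sides did not overlap in 171 of the 185 called transcripts, against 738 of all transcripts tested (4.78%), where 1.20% were called. That is 85 of the 88 higher and 86 of the 97 lower transcripts. The calls were made on the same libraries, so separation of the sides largely follows from the choice. A further 567 transcripts had no overlap and were not called, and of the 738 in all, 450 were lower in the chamber (2.92% of those tested) and 288 higher (1.87%). The gap between the nearest libraries reached 1 or more on the log2 scale in 6 called transcripts, 3 higher and 3 lower. In turn, 433 transcripts differed by 1 or more on the log2 scale without being called. Their median SE was 0.63, against 0.15 among the called transcripts, and their median SD within N was 0.83 on the log2 scale, against 0.19.

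Each chamber group was then set beside the others for the same 185 transcripts. These differences share the N libraries, and the transcripts were chosen on their average, so they are descriptions. Among the 88 higher transcripts the median difference from N was 0.98 for H, 0.98 for C3 and 0.78 for I3 on the log2 scale. Among the 97 lower transcripts it was -0.85 for H, -1.05 for C3 and -0.83 for I3. C3 was the group farthest from N for 100 of the 185 transcripts (54.1%), H for 58 (31.4%) and I3 for 26 (14.1%), and in 1 transcript H and C3 tied, with all their libraries listed at 0. Over all transcripts tested these shares were 43.1%, 28% and 28.9%. The difference between called and tested transcripts was thus largest for I3, which was seldom the farthest group. Taken alone against N over all 15435 transcripts, H had 52 calls (0.337%), C3 had 168 (1.09%) and I3 had 14 (0.0907%). For H the count was 17 without H replicate 3, 32 without N replicate 2 and 34 without H replicate 2. For C3 it was 21 to 55 without N replicate 2, N replicate 3 or any one C3 library, and 105 to 110 without H replicate 2, I3 replicate 2 or I3 replicate 3, which enter through the shared spread. For I3 it was 8 and 9 without C3 replicates 3 and 1, and 31 without N replicate 1. The median SD within the group over all transcripts tested was 0.17 for C3, 0.21 for both H and I3, and 0.23 for N on the log2 scale.

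**Figure D4:**
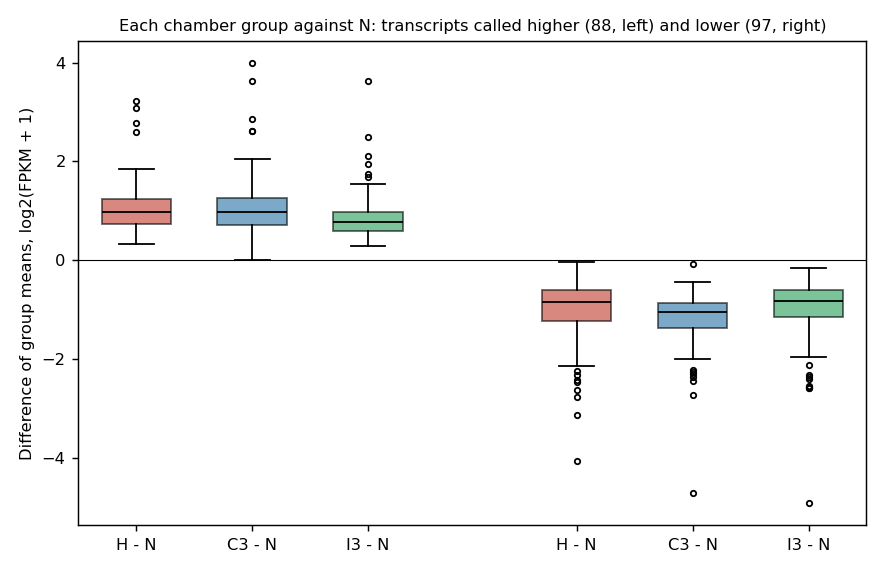
Difference of each chamber group's mean from the N mean (log2(FPKM + 1)) for the 88 transcripts called higher (left) and the 97 called lower (right). Boxes show quartiles and the median, whiskers reach to 1.5 box lengths, and points lie beyond. Medians are 0.98, 0.98 and 0.78 for H, C3 and I3 on the left and -0.85, -1.05 and -0.83 on the right.

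Whether the chamber groups differed from each other was tested with an F test over H, C3 and I3. It compares no N library, though it shares the estimate of the spread with the comparison to N, so that transcripts with a small spread are called more easily in both. Among the 185 called transcripts 3 passed, and over all transcripts tested 6 passed (0.0389%). At an unadjusted p below 0.05 it was 54 of 185 (29.2%) and 974 of all tested (6.31%). Without H replicate 2 or H replicate 3 the count of 6 became 1 and 2, and without N replicate 3, H replicate 1, I3 replicate 2 or any one C3 library it was 10 to 12. In 2 of the 3 transcripts that passed, at least 1 chamber group overlapped N although the chamber average was called.

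The transcript with the smallest F test p among them was low in I3 alone. The I3 libraries held 10.5, 9.42 and 7.94 FPKM, the C3 libraries 28.7, 29.1 and 29.7, the H libraries 28.2, 36.6 and 25.8, and the N libraries 32.8, 32.0 and 27.6. The N, H and C3 libraries overlapped, and the I3 libraries lay below all of them. Its adjusted p was 0.0439 in limma for the chamber average and 0.00696 in limma for the F test. Another was high in H, at 10.3, 11.7 and 11.3 FPKM, while the N libraries held 3.28, 3.83 and 3.68 FPKM, the C3 libraries 4.24, 3.76 and 2.97, and the I3 libraries 5.52, 4.92 and 4.84. C3 overlapped N, and I3 lay between N and H. The adjusted p was 0.024 in limma for the chamber average and 0.00881 in limma for the F test. The third was low in H, at 6.89, 5.77 and 5.29 FPKM, with C3 above it (10.7, 11.6 and 11.1), I3 above C3 (13.4, 15.0 and 13.3) and N above I3 (15.4, 15.3 and 16.1). The groups did not overlap with each other, and the adjusted p was 0.012 in limma for the chamber average and 0.00929 in limma for the F test. Taken alone against N, the adjusted p in limma was 0.00125 for H, 0.076 for C3 and 0.631 for I3. All 3 transcripts lost the call of the chamber average when the 9 chamber libraries were fitted as a single group (adjusted p = 0.571, 0.437 and 0.309 in limma). In that fit, differences between chamber groups count as spread. These transcripts were picked out by the F test and so were seen before they were described.

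Reoxygenated libraries (C3 and I3 together) were compared with H for the called transcripts, a difference that uses no N library. The higher transcripts had a median difference of -0.07 on the log2 scale, toward N, with 59 of 88 lower in the reoxygenated libraries (67.0%). The lower transcripts had a median of -0.10, away from N, with 60 of 97 lower (61.9%). Over all transcripts tested the median was -0.0083, with 51.7% lower and 48.3% higher. Both medians therefore lay below 0, in opposite directions relative to N, and kept that sign under all 23 alternatives run. Several of these could not move the medians. They left out only N libraries, dropped the filter, or changed only the trend, the moderation or the replicate block. The size of the medians was thus open to change only in the other alternatives. That size depended on single libraries. For the higher transcripts the median was -0.041 without H replicate 1, -0.13 without H replicate 2 and -0.0285 without H replicate 3, or -0.0328 when I3 replicate 3 was left out as well. For the lower ones it was -0.0535 without H replicate 1 and -0.0607 without C3 replicate 2. Taken apart, C3 minus H had a median of 0.02 in the higher and -0.19 in the lower transcripts, and I3 minus H had medians of -0.15 and -0.02. At an adjusted p below 0.05 in limma, 2 of the 185 transcripts and 3 of all tested (0.0194%) differed between reoxygenated libraries and H. At an unadjusted p below 0.05 it was 32 of the 185, of which 15 lay toward N, and 820 of all tested (5.31%).

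The number of calls depended on single libraries, and moved most with N replicates 2 and 3. Leaving out N replicate 2 gave 39 calls and leaving out N replicate 3 gave 62. Leaving out H replicate 3 or C3 replicate 2 gave 105 calls each, and the omission of any other library gave 128 to 203. N replicate 1, whose omission gave 203, was the N library nearest to the chamber libraries for 37 of the 88 higher and 44 of the 97 lower transcripts. With H replicate 3 and I3 replicate 3 both left out, the count was 56. With N replicates 2 and 3 both left out, so that a single N library was assumed to vary like the other groups, it was 50, of which 9 were among the 185. That omission was chosen after the place of these libraries on the first component was known.

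**Figure D5:**
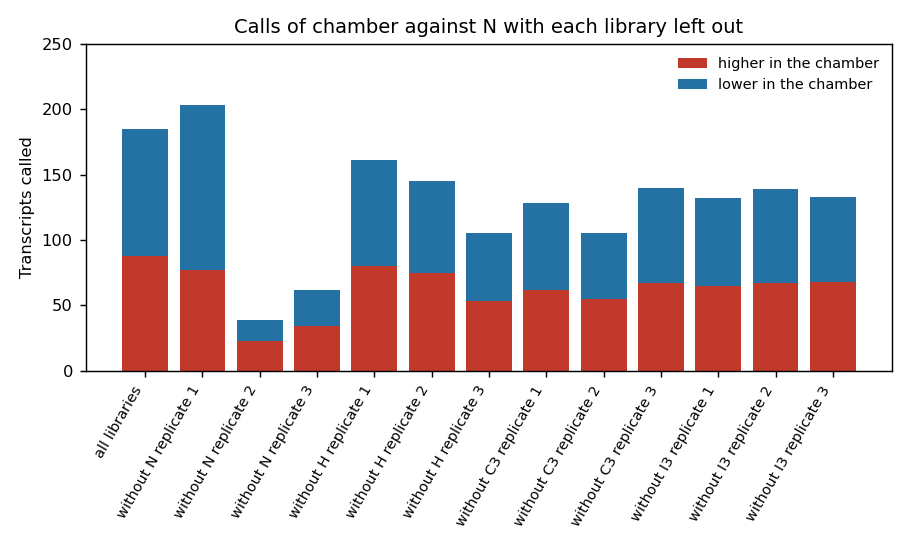
Number of transcripts called higher and lower in the chamber (stacked bars) with all 12 libraries and with each library left out. The count of 185 falls to 39 without N replicate 2 and to 62 without N replicate 3.

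Of the 185 transcripts, 25 were called under each of the 12 omissions of a single library, 19 higher and 6 lower, while 80 were called under 6 or fewer. The 25 include ENSRNOT00000052288, ENSRNOT00000026473 and the transcript with the smallest p. Their differences ran from 0.63 to 2.82 on the log2 scale in either direction, with a median size of 1.08, and their mean levels from 1.20 to 269 FPKM. The median size of the difference from N was 1.15 for H, 1.11 for C3 and 0.96 for I3. Of the 25, 0 passed the F test among chamber groups, against 6 of all transcripts tested (0.0389%). With so small a share, 0 is no trait of these 25. The most abundant of them stood at 158 ± 7.12 FPKM in N, against 307 ± 47.9 in I3, 308 ± 30.7 in C3 and 302 ± 32.6 in H (SD, n = 3). Its 3 chamber means lay within 6 FPKM of each other, well inside their SDs. A lower one stood at 21.7 ± 2.71 FPKM in N, against 9.63 ± 1.22 in I3, 9.91 ± 0.71 in C3 and 11.3 ± 0.59 in H. Another lower one had N libraries at 7.64, 7.71 and 7.54 FPKM, against 1.26 to 2.37 in H and C3 and 2.42 to 4.02 in I3, where I3 lay above every H and C3 library. These 25 were selected on the same data and were given no further test.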

How the data were processed

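Whole-lung RNA was measured in 12 libraries, 3 in each of 4 groups taken from the sample titles. The authors deposited 1 table of fractional values per Ensembl transcript and library. Its header names no unit, and the values were taken as FPKM since the submitters' processing notes name StringTie, beside cutadapt and HISAT2 2.0.5. TPM of a filtered list cannot be told apart. The human build those notes name does not match rat identifiers, so no build is stated and no coordinates are given. Per the labels' protocols, libraries were made from random-primed cDNA with dUTP in the second strand. The depth is unknown, since the table holds no counts.

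Transcripts with at least 1 FPKM in at least 3 of 12 libraries entered the tests (15435 kept, 1819 dropped). The scale was log2(FPKM + 1), which understates the change of low transcripts. Limma 3.58.1 in R 4.3.3 fitted 1 mean per group (8 residual degrees of freedom, mean-variance trend), and the average of H, C3 and I3 was contrasted with N. P-values were two-sided, with Benjamini-Hochberg adjustment across the transcripts tested, and transcripts below 0.05 were called. The fit was run on simulated data with known changes and independent noise of equal spread in all 12 libraries of a transcript. Such data lack differences between whole libraries like those seen here, so the run checks the code and not the calls. Transcripts of a gene share reads that StringTie divides by estimation, so a transcript can change while its gene does not. The named transcripts are the 2 largest rises and 2 largest falls among called transcripts without overlap of the sides. The comparison, lists and rules were chosen with earlier results of these data known. Gene lists and cell type markers could not be applied without gene names.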

Additional observations from a re-analysis of the deposited data

Results flagged for a closer look

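For 3 transcripts called in the chamber average, the effect against N differed between H, C3 and I3 by the F test of limma, with adjusted p-values of 0.00696 (low in I3 alone), 0.00881 (high in H) and 0.00929 (low in H, with C3 and I3 between H and N). Over the 9 chamber libraries, the 4 named transcripts, the sum of values, the number listed at 0 and the shares of the called transcripts were searched for a single library far from the rest by Dixon's criterion, and 0 of these 8 measures held one.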

How the results depend on the processing

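Without 1 library, counts ranged from 39 to 203 for the chamber average, 1 to 12 for the F test among chamber groups, 17 to 58 for H against N, 21 to 169 for C3 against N and 8 to 31 for I3 against N. Library weights gave 298 for C3 against N, and fitting only the 2 groups compared gave 35. Without H replicate 3 and I3 replicate 3 together the counts were 56 for the chamber average, 10 for H and 51 for C3. Without N replicates 2 and 3, an alternative chosen after seeing the data, they were 50 for the chamber average, 16 for the F test, 50 for C3 and 43 for I3. For these shifts the cause was not tested. Replicate numbers are parts of library codes, deviations of same-numbered libraries from their group means correlated with r of -0.035 to 0.13 in 18 pairs, and the best match of a library had its own number in 5 of 12, so they were not taken as pairs. With the replicate block the counts were 76 for the chamber average, 2 for the F test, 28 for H and 25 for C3. Median ratio scaling, pseudocounts of 0.1 and 0.5, a filter at 5 FPKM, no filter, no trend, robust moderation and the chamber libraries as a single group gave 163 to 194 for the chamber average, library weights 189. No named transcript changed sign under the alternatives run for it. They were chosen for sides that did not overlap, so leaving out libraries could not reverse the sign, and this is no measure of stability. The larger direction of the chamber average, lower with 97 against 88, turned to higher under median ratio scaling (98 against 87), a pseudocount of 0.1 (91 against 86) and the replicate block (48 against 28), and also without N replicate 2 (23 against 16), N replicate 3 (34 against 28), H replicate 2 (75 against 70), H replicate 3 (53 against 52), C3 replicate 2 (55 against 50) or I3 replicate 3 (68 against 65), and in both alternatives that left out a pair of libraries (37 against 19 and 29 against 21). With the replicate block, C3 no longer had more calls than H. ENSRNOT00000045492 lost its call under 14 of 23 alternatives, ENSRNOT00000090914 under 4 of 24 and ENSRNOT00000026473 under 1 of 24, and ENSRNOT00000045492 gave no value under the filter at 5 FPKM, which removed it. Depth is unknown, so precision rests on 3 libraries per group.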
